A study of Mus musculus with 16 samples.

Results

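The genes of glycolysis, the pentose phosphate pathway and the hypoxia response were followed as a list of 35 gene symbols out of 24421 in 16 RNA sequencing libraries. The members were set as a list of names with earlier results of these data known, and all 35 were found. The libraries came from monocytic (M-MDSCs) and granulocytic (G-MDSCs) myeloid-derived suppressor cells, which the study defines as Ly6C+Ly6G- and Ly6C-Ly6G+ cells high in CD11b. They were sorted from the spleen, where such cells expand in tumor-bearing hosts. Donors were 4 wild-type (WT) and 4 Nlrp3-/- mice on a C57BL/6 background, all carrying the B16.F10 melanoma, which is a transplanted cell line that itself has an intact Nlrp3 gene. Each mouse gave both subsets, so there were 4 groups of 4 libraries and each RNA sample came from 1 mouse. The Nlrp3-/- mice lack the gene in every cell of the host, through an EGFP cassette fused to its start codon. By the study's general rule the mice were matched for age and sex, and the age of each mouse was not used here.

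Glycolysis splits glucose into pyruvate, which is either oxidised in mitochondria or turned into lactate and exported. The pentose phosphate pathway branches off after the hexokinase step, makes NADPH and pentose sugars, and returns intermediates to glycolysis through transaldolase and transketolase. Under low oxygen the HIF-1α protein, encoded by Hif1a, escapes hydroxylation by the prolyl hydroxylases and degradation through Vhl, and it then raises transcription of glucose transporters, many glycolytic enzymes, Bnip3, Vegfa and the hydroxylase gene Egln3. Neutrophils are known for depending largely on glycolysis and for using NADPH in the oxidative burst.

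HIF-1 binds a short core, ACGTG or GCGTG, and the promoters of the 4 members with the largest rises in G-MDSCs of WT mice, among those with an entry in the promoter table, are shown here because the members that rose together include known HIF-1 targets. Each line gives the 250 bases before the start site listed by RefSeq (build GRCm38.p6, the mm10 assembly), 5′ to 3′ on the strand of the gene, with every core on either strand in capitals, which reads as CACGT or CACGC on the other strand. They lie at chr12:54203875-54204124 on the minus strand for Egln3, chr11:120948817-120949066 on the plus strand for Slc16a3, chr7:138909507-138909756 on the minus strand for Bnip3 and chr13:55021386-55021635 on the minus strand for Hk3. No sequence is printed for Slc2a3.
Egln3: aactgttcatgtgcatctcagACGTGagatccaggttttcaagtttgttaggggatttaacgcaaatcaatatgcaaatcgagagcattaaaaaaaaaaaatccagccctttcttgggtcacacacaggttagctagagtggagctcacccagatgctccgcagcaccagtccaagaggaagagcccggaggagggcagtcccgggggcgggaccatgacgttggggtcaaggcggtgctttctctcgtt
Slc16a3: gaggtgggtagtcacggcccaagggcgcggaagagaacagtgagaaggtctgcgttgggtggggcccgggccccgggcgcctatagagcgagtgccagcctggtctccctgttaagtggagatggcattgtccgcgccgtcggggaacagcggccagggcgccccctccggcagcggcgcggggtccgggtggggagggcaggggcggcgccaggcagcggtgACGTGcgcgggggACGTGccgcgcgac
Bnip3: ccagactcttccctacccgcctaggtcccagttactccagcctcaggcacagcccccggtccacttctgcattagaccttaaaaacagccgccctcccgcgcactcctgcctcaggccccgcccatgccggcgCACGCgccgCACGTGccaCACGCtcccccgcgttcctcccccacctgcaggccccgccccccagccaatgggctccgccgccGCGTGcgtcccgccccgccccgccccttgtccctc
Hk3: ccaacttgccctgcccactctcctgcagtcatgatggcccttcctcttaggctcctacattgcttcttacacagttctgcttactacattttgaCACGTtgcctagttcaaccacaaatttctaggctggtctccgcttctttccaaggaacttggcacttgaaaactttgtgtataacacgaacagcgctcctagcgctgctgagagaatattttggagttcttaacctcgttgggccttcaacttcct
The Bnip3 window held 5 cores, of which a pair overlaps in CACGTG, the Slc16a3 window 2, and the Egln3 and Hk3 windows 1 each. Across the 33 members with an entry there were 48 start sites, and 38 of them (79.2%) held at least 1 core, against 38.6% of 32851 start sites of all genes. The members' windows were also richer in G and C, with a median of 60.4% against 52.4%, so the shares are not matched for base composition. Among the start sites of members that were higher in G-MDSCs of WT mice 77.3% held a core, and among those of the other members tested there 75.0% did. A match of these letters is a description of the window and not a bound site.

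Libraries held 2295967 to 6079866 counts on genes, and 3 counts correspond to 0.493 to 1.31 CPM, a count scaled to the size of its library. Nlrp3 itself checked the labels. Among M-MDSC libraries it had 219 to 632 counts (WT) and 4 to 11 (Nlrp3-/-), among G-MDSC libraries 744 to 1365 and 21 to 59. Levels below are CPM scaled by TMM over the 16 libraries, listed in the order of the mice, and differences are log2 fold changes ± SE from edgeR fits within the pair of groups named, whose own scaling differs slightly from that of the levels. A gene was called at an adjusted p (Benjamini-Hochberg, over all genes tested in that comparison) under 0.05 and a fold change above 1.5. QuantSeq reads the 3′ end of a transcript, so a level is not divided by gene length.

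Only 2 members gave too little signal to be tested in any comparison. Eno1, which encodes enolase, had 0 counts in all 16 libraries, and Gapdh had 0 to 15. Both genes have 3′ ends that repeat elsewhere in the genome. Of the 75-base windows in the last 500 bases of the transcript, 84.0% of those of Gapdh occur in 78 other annotated genes as well, 75 of them pseudogenes, and 62.0% of those of Eno1 recur in Eno1b or a pseudogene, where 3.29% of 20506 genes have more than 50% of their windows shared. Whether the counting step set these values was not tested. The shares were 17.1% for Ldhb, 7.51% for Bnip3, 1.88% for Pgk1 and 0 for the other members. Only exact matches of a whole window to annotated transcripts were counted, so near copies were not seen. Whether such copies affected the low counts of Pgk1 and Pgam1 was not tested.

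G-MDSCs carried more mRNA than M-MDSCs of all 3 glucose transporters, 1 of 3 hexokinases, the lactate exporter Slc16a3, 2 of 4 pentose phosphate genes, and Bnip3 and Vegfa of 3 hypoxia targets. In WT mice 31 members were tested and 18 were called, 16 higher and 2 lower in G-MDSCs. In Nlrp3-/- mice 33 were tested and 17 were called, 16 higher and 1 lower. Subset differences of this size were common across the transcriptome. In WT mice 58.1% of the tested members were called against 53.3% of all tested genes, and in Nlrp3-/- mice 51.5% against 51.0%. The direction was less even than in all genes. The members were chosen with earlier results of these data known, so this direction is a description and was not tested. In WT mice 26.3% of all genes were called higher and 27.1% lower, in Nlrp3-/- mice 23.7% and 27.4%, and the members' median log2 fold change was 0.65 and 0.79 where that of all tested genes was −0.05 and −0.12.

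**Figure D1:**
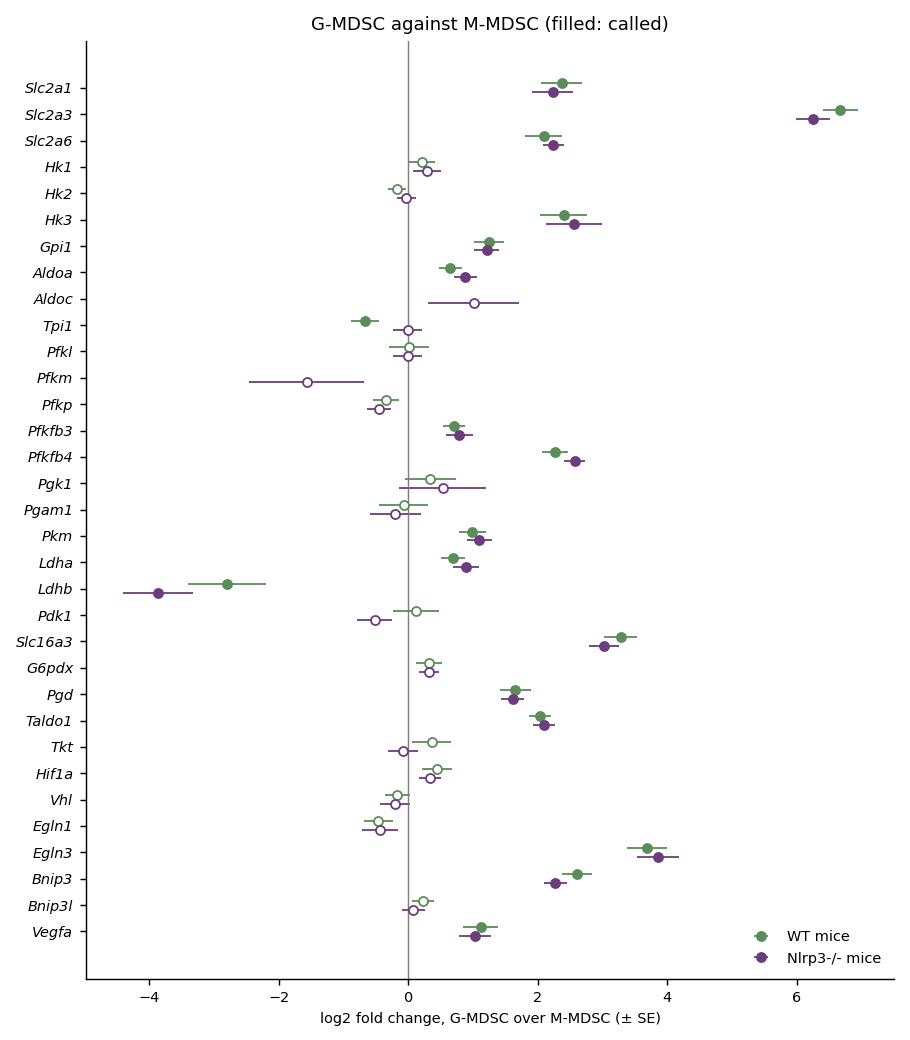
Log2 fold change of G-MDSCs over M-MDSCs (horizontal axis, ± SE) for each tested member (vertical axis, ordered by role), in WT mice (green) and Nlrp3-/- mice (purple), with filled points for called members. Slc2a3 stands furthest to the right at 6.67 and 6.25, Ldhb furthest to the left at −2.80 and −3.87, and most points lie on the same side of 0 in both genotypes.

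The sizes of these differences depended on how the libraries were scaled. The TMM factors were 1.20 to 1.46 in M-MDSCs and 0.722 to 0.804 in G-MDSCs. With library size only, every log2 difference moved down, and the median of all genes moved by 0.744 in WT and 0.714 in Nlrp3-/- mice. The 10 members Slc2a1, Slc2a3, Slc2a6, Hk3, Pfkfb4, Slc16a3, Pgd, Taldo1, Egln3 and Bnip3 were called higher in G-MDSCs under both scalings in both genotypes, and Ldhb was called lower. Aldoa, Ldha and Pfkfb3 had the opposite sign in WT mice with library size only, and in Nlrp3-/- mice they kept their sign without a call. Gpi1, Pkm and Vegfa kept their sign but were not called in either genotype. In all, 11 members changed sign in WT and 5 in Nlrp3-/- mice, Hk1, Pgk1, G6pdx, Hif1a and Bnip3l in both. With that scaling the calls split into 10 higher and 7 lower in WT and 10 higher and 12 lower in Nlrp3-/- mice. Among all tested genes, 1166 were then called higher and 5061 lower in WT mice, and 1146 and 5034 in Nlrp3-/- mice. Lower calls made up 81.3% and 81.5% of all calls, so the members' calls leaned less to the lower side than those of all genes.

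All 3 glucose transporters rose in G-MDSCs. Slc2a3 encodes GLUT3, a high-affinity transporter, and spans positions 122727809 to 122801640 of chromosome 6 (mm10, minus strand). Its level was 3.72, 6.33, 2.68 and 4.8 CPM in M-MDSCs and 528, 368, 433 and 479 CPM in G-MDSCs of WT mice. In Nlrp3-/- mice it was 5.82, 11.9, 8.98 and 5.40 CPM in M-MDSCs and 627, 638, 571 and 768 CPM in G-MDSCs. Every G-MDSC library lay far above every M-MDSC library, and the log2 fold change was 6.67 ± 0.27 in WT (adjusted p = 1.53e-08, edgeR's quasi-likelihood test) and 6.25 ± 0.26 in Nlrp3-/- mice. In M-MDSCs Slc2a3 rested on 14 to 70 counts, and 7 neutrophil marker genes summed to 1190 to 6650 CPM there against 106000 to 162000 CPM in G-MDSCs. The part of granulocytes in the low M-MDSC level of Slc2a3 was not tested. Slc2a1, the widespread transporter GLUT1, had 12.1, 24.0, 17.7 and 24.3 CPM in M-MDSCs and 60.4, 66.0, 133 and 142 CPM in G-MDSCs of WT mice, a log2 fold change of 2.37 ± 0.32. The G-MDSC values spread over a wide range without reaching those of M-MDSCs. Slc2a6, a lysosomal hexose transporter, rose by 2.09 ± 0.28 in WT and 2.24 ± 0.16 in Nlrp3-/- mice on the log2 scale.

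Of the hexokinases, which trap glucose in the cell by phosphorylating it, 1 of 3 differed between the subsets. Hk3, the isoform known from myeloid cells (chromosome 13, 55005985 to 55021385, minus strand), had 12.3, 18, 16.2 and 14.0 CPM in WT M-MDSCs and 45.1, 41.6, 96.2 and 139 CPM in WT G-MDSCs. Its G-MDSC level varied widely among mice, yet the groups did not overlap, and the log2 fold change was 2.40 ± 0.36 in WT and 2.56 ± 0.43 in Nlrp3-/- mice. Hk1, the housekeeping isoform on the outer mitochondrial membrane, differed by 0.21 ± 0.20 and 0.29 ± 0.21, and the inducible Hk2 by −0.18 ± 0.14 and −0.03 ± 0.15, and neither passed the test in either genotype.

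**Figure D2:**
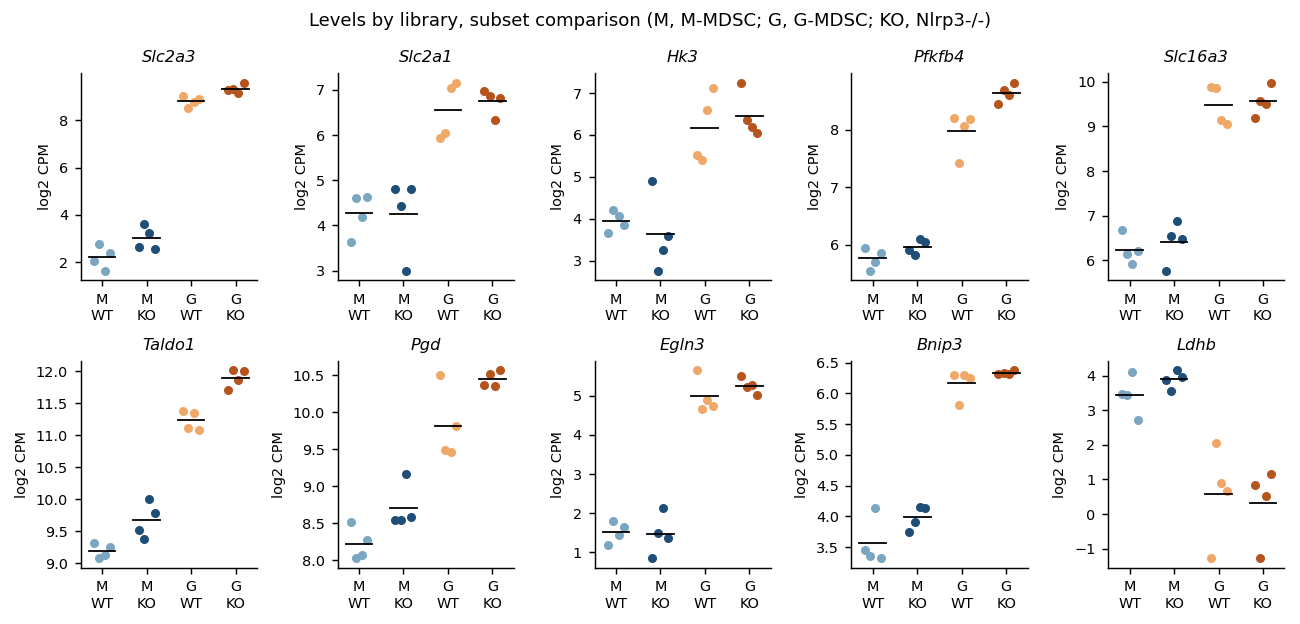
Log2 CPM (vertical axes, prior count of 2, each panel with its own range) of 10 members in each library, by group along the horizontal axis (M, M-MDSC; G, G-MDSC; KO, Nlrp3-/-), with a line at the mean of 4 libraries. In 9 panels the G-MDSC points lie above all M-MDSC points, and in the Ldhb panel they lie below them.

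The enzymes between glucose 6-phosphate and triose phosphates moved less and not all the same way. Gpi1, the isomerase that makes fructose 6-phosphate, rose in G-MDSCs by 1.25 ± 0.23 in WT and 1.21 ± 0.19 in Nlrp3-/- mice. Aldoa, the main aldolase of most tissues, had 439, 302, 321 and 295 CPM in M-MDSCs and 615, 446, 509 and 559 CPM in G-MDSCs of WT mice, a narrow gap that gave 0.65 ± 0.18 (adjusted p = 0.00778, edgeR's quasi-likelihood test). That call was lost without WT M-MDSC replicate 2, 3 or 4 or WT G-MDSC replicate 1, with log2 fold changes of 0.53 to 0.58. In Nlrp3-/- mice Aldoa rose by 0.88 ± 0.18. Aldoc, the aldolase best known from brain, had 0 to 45 counts and did not pass the test where it was tested. Tpi1, which interconverts the triose phosphates, was lower in G-MDSCs of WT mice, with 35.1, 48.4, 52.1 and 39.4 CPM in M-MDSCs and 18.7, 28.1, 34.6 and 28.0 CPM in G-MDSCs. The log2 fold change was −0.67 ± 0.22, not called without WT G-MDSC replicate 1 (−0.52), and in Nlrp3-/- mice it was −0.01 ± 0.22 with overlapping groups.

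None of the phosphofructokinase subunit genes was called between the subsets. Pfkl, the liver-type subunit, differed by 0.01 ± 0.31 in WT and −0.01 ± 0.23 in Nlrp3-/- mice, and Pfkp, the platelet-type subunit, by −0.35 ± 0.20 and −0.45 ± 0.18, the latter under the fold minimum with an adjusted p of 0.0469 (edgeR's quasi-likelihood test). Pfkm, the muscle-type subunit, had 0 to 43 counts per library and was tested in Nlrp3-/- mice only, at −1.57 ± 0.89. Both genes that set the level of fructose 2,6-bisphosphate, the activator of phosphofructokinase, rose in G-MDSCs. Pfkfb4 had 60.9, 46.0, 51.2 and 57.6 CPM in M-MDSCs and 296, 171, 269 and 292 CPM in G-MDSCs of WT mice, with fold changes of 2.26 ± 0.20 and 2.57 ± 0.16 on the log2 scale in the 2 genotypes. Pfkfb3, known for its high kinase activity, rose by 0.71 ± 0.17 and 0.79 ± 0.21.

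In lower glycolysis Pkm was the only called gene of 3 tested. Pkm encodes pyruvate kinase of both M forms, which a 3′ count cannot separate. It had 594, 441, 503 and 436 CPM in M-MDSCs and 1290, 662, 1080 and 881 CPM in G-MDSCs of WT mice, a log2 fold change of 0.99 ± 0.21, and it rose by 1.10 ± 0.19 in Nlrp3-/- mice. Pgk1 (phosphoglycerate kinase) and Pgam1 (phosphoglycerate mutase) had group means of 2.80 to 6.40 CPM in every group, and their differences between subsets, 0.34 ± 0.39 and −0.07 ± 0.38 in WT mice, were smaller than their errors.

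At the pyruvate branch the lactate exporter rose and the dehydrogenase genes parted. Slc16a3 encodes MCT4, which exports lactate from glycolytic cells (chromosome 11, 120948480 to 120960868, plus strand). It had 102, 69.9, 60.3 and 73.7 CPM in M-MDSCs and 941, 937, 564 and 530 CPM in G-MDSCs of WT mice, and the log2 fold change was 3.28 ± 0.26 in WT and 3.02 ± 0.23 in Nlrp3-/- mice. Ldha, whose subunit favours lactate formation, rose by 0.69 ± 0.19 and 0.89 ± 0.20. In WT mice its lowest G-MDSC library (91.1 CPM) lay below the highest M-MDSC library (93.3 CPM), and the call was lost without WT M-MDSC replicate 4 (0.57) or WT G-MDSC replicate 3 (0.56). Ldhb, whose subunit favours the reverse reaction, had 10.8, 10.5, 16.9 and 6.17 CPM in M-MDSCs and 0, 3.72, 1.45 and 1.17 CPM in G-MDSCs of WT mice. It had 14.3, 11.4, 17.5 and 15.3 CPM in M-MDSCs and 1.39, 0, 1.04 and 1.84 CPM in G-MDSCs of Nlrp3-/- mice. The log2 fold change was −2.80 ± 0.60 (adjusted p = 0.00177, edgeR's quasi-likelihood test) and −3.87 ± 0.54 (adjusted p = 3.87e-05), and the G-MDSC values rest on 0 to 11 counts. Pdk1, which inhibits pyruvate dehydrogenase, did not pass the test, at 0.12 ± 0.36 and −0.52 ± 0.27.

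In the pentose phosphate pathway the genes for transaldolase and for the second NADPH-producing dehydrogenase rose, and the rate-limiting and transketolase genes were not called. Taldo1 (transaldolase; chromosome 7, 141392199 to 141402968, plus strand) had 637, 541, 561 and 610 CPM in M-MDSCs and 2670, 2220, 2620 and 2160 CPM in G-MDSCs of WT mice. Both groups were tight and far apart, with a log2 fold change of 2.04 ± 0.17, and 2.1 ± 0.17 in Nlrp3-/- mice. Pgd (phosphogluconate dehydrogenase) had 367, 261, 269 and 310 CPM in M-MDSCs and 1450, 717, 707 and 902 CPM in G-MDSCs of WT mice, with 1.65 ± 0.24 and 1.61 ± 0.17 in the genotypes. G6pdx, the dehydrogenase at the entry of the pathway, differed by 0.32 ± 0.20 and 0.32 ± 0.16. Tkt (transketolase) differed by 0.36 ± 0.30 and −0.08 ± 0.23.

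Among the regulators of the hypoxia response only Egln3 was called between the subsets. Egln3 encodes the prolyl hydroxylase PHD3. It had 1.86, 3.09, 2.32 and 2.74 CPM in M-MDSCs and 50.1, 24.7, 29.1 and 26.5 CPM in G-MDSCs of WT mice, 8 to 22 and 68 to 150 counts, with log2 fold changes of 3.69 ± 0.31 and 3.86 ± 0.32. Hif1a itself differed by 0.44 ± 0.23 and 0.33 ± 0.17, Vhl by −0.17 ± 0.19 and −0.21 ± 0.23, and Egln1, the main prolyl hydroxylase PHD2, by −0.46 ± 0.23 and −0.44 ± 0.28, and none of the 3 was called. Without WT M-MDSC replicate 1, Hif1a was called as well in WT mice. Of the targets, Bnip3, a mitochondrial receptor for mitophagy, had 10.6, 9.84, 17.1 and 9.59 CPM in M-MDSCs and 78.1, 55.8, 78.0 and 75.9 CPM in G-MDSCs of WT mice. It rose by 2.60 ± 0.23 and 2.27 ± 0.18, while its relative Bnip3l differed by 0.23 ± 0.17 and 0.08 ± 0.18. Vegfa, the vascular growth factor gene, rose by 1.12 ± 0.27 in WT and 1.03 ± 0.25 in Nlrp3-/- mice.

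Shares within a library do not depend on scaling, so the paralogs were also compared as the share of 1 gene in the counts of its family. Hk3 made up 5.63% ± 0.73 (SD, n = 4) of the counts of the 3 hexokinase genes in WT M-MDSCs and 23.8% ± 9.84 in WT G-MDSCs. Slc2a3 made up 8.60% ± 3.20 of the counts of the 3 transporter genes in WT M-MDSCs and 67.2% ± 5.51 in WT G-MDSCs. Pfkfb4 made up 59.4% ± 3.59 of its counts with Pfkfb3 in WT M-MDSCs and 80.6% ± 5.34 in WT G-MDSCs. In Nlrp3-/- mice the means were 4.8% and 21.8% for Hk3, 14.4% and 71.6% for Slc2a3, and 55.6% and 81.2% for Pfkfb4. Each share was higher in G-MDSCs than in M-MDSCs in 8 of 8 mice, by 17.5 ± 7.25, 57.9 ± 7.05 and 23.4 ± 5.12 percentage points (SD, n = 8). These 3 genes are the ones whose level differed most within their families, so the shares describe that difference on another scale. A test of them would add no support, and no p is printed. Within each subset the ranges of the genotypes overlapped for all 3 shares.

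**Figure D3:**
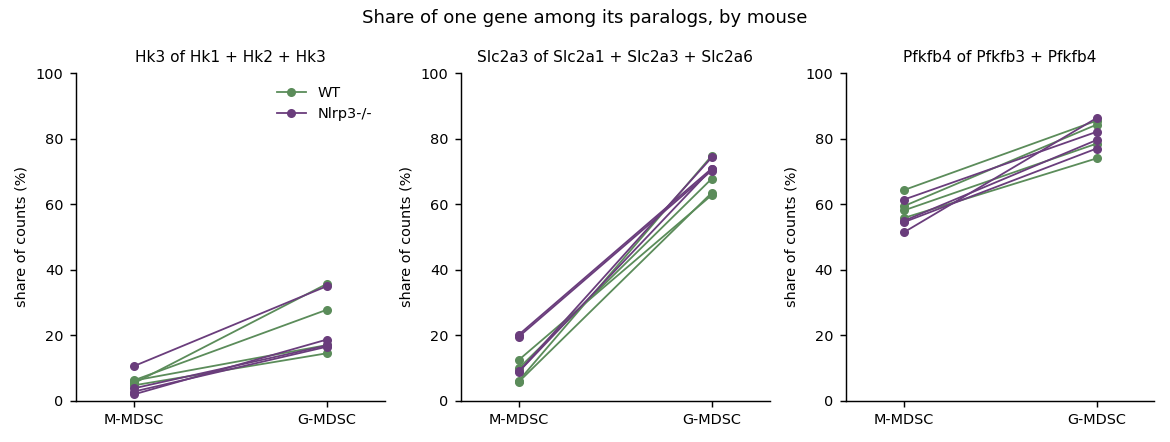
Share in percent (vertical axes, 0 to 100) of Hk3, Slc2a3 and Pfkfb4 in the counts of their gene family, in M-MDSCs and G-MDSCs (horizontal axis), with a line joining the 2 subsets of each mouse, WT in green and Nlrp3-/- in purple. All lines rise from M-MDSCs to G-MDSCs, and the lines of both genotypes intermingle.

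The loss of Nlrp3 in G-MDSCs was accompanied by higher mRNA of aldolase and transaldolase and lower mRNA of Hif1a and Vegfa. Of 30 members tested there 4 were called, 2 higher and 2 lower, which is 13.3%, against 16.4% of all genes called, 4.70% higher and 11.7% lower. The WT and Nlrp3-/- groups did not overlap for 8 members, where 24.4% of all genes did not, so both counts were near the background. The members' median log2 fold change was 0.13 and that of all tested genes 0.03.

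Aldoa (chromosome 7, 126795234 to 126800751, minus strand) had 615, 446, 509 and 559 CPM in WT and 785, 887, 910 and 905 CPM in Nlrp3-/- G-MDSCs. All 4 Nlrp3-/- libraries exceeded all WT libraries, with a log2 fold change of 0.63 ± 0.15 (adjusted p = 0.0104, edgeR's quasi-likelihood test). Taldo1 had 2670, 2220, 2620 and 2160 CPM in WT and 3350, 4160, 3730 and 4130 CPM in Nlrp3-/- G-MDSCs. These groups did not overlap either, and the log2 fold change of 0.59 ± 0.16 (adjusted p = 0.0189) only just exceeded the fold minimum of 0.585 on this scale.

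Hif1a, which encodes the oxygen-regulated subunit of HIF-1 (chromosome 12, 73901375 to 73947530, plus strand), had 99.5, 127, 96.2 and 84.1 CPM in WT and 65.8, 72.6, 63.6 and 71.3 CPM in Nlrp3-/- G-MDSCs. All Nlrp3-/- values lay below all WT values, and the log2 fold change was −0.66 ± 0.17 (adjusted p = 0.0170, edgeR's quasi-likelihood test). Vegfa (chromosome 17, 46016993 to 46032369, minus strand) had 48.7, 54.8, 49.2 and 52.5 CPM in WT and 40.9, 39.0, 25.5 and 32.8 CPM in Nlrp3-/- G-MDSCs, again without overlap, and −0.66 ± 0.20 (adjusted p = 0.0342). Other targets of HIF-1 on the list gave different values. Egln3 differed by 0.14 ± 0.24, Bnip3 by 0.08 ± 0.16, Slc2a1 by 0.02 ± 0.27 and Slc16a3 by −0.03 ± 0.22 between the genotypes. None of them passed the test. Among the glucose transporter and glycolytic genes, Aldoa was called higher. Pfkfb4, Pfkfb3 and Pkm at 0.56 each, Slc2a3 at 0.44 and Hk2 at 0.41 lay above 0 without a call. Ldha at −0.05, Pgk1 at −0.1 and Pgam1 at −0.12 lay below 0.

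**Figure D4:**
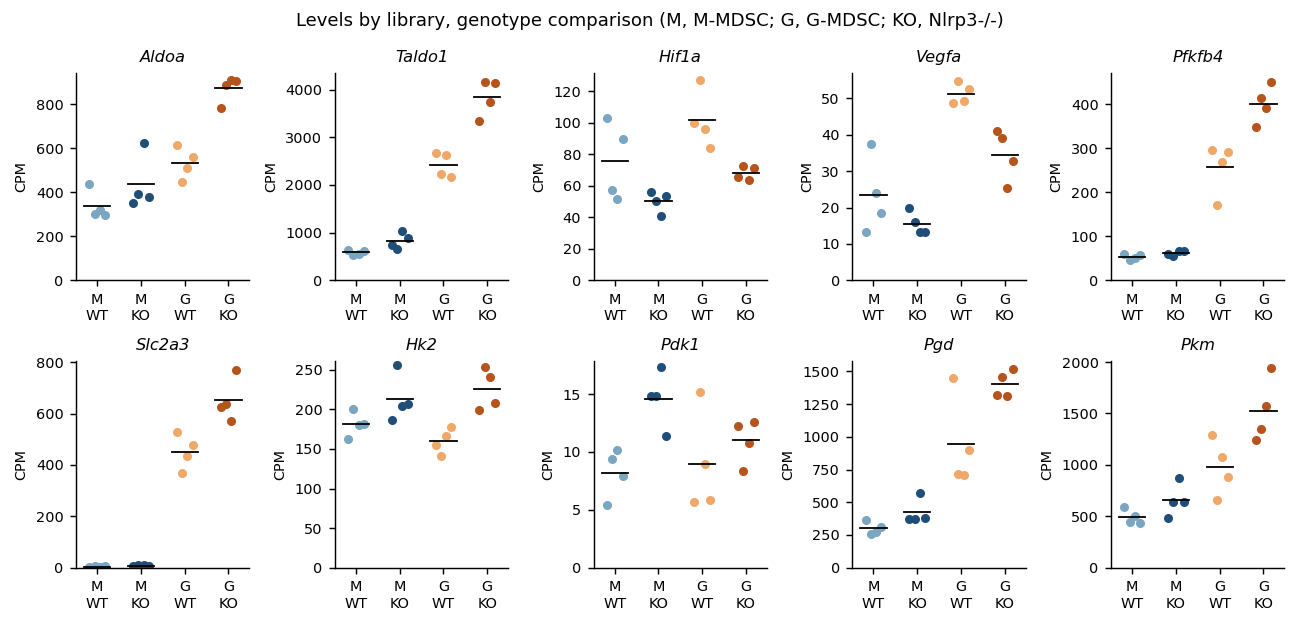
CPM (vertical axes from 0, each panel with its own range) of 10 members in each library, by group along the horizontal axis (M, M-MDSC; G, G-MDSC; KO, Nlrp3-/-), with a line at the mean of 4 libraries. In G-MDSCs the Nlrp3-/- points of Aldoa and Taldo1 lie above, and those of Hif1a and Vegfa below, all WT points.

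Several further members lay close to a threshold in G-MDSCs. Pfkfb4 had 296, 171, 269 and 292 CPM in WT and 349, 414, 391 and 450 CPM in Nlrp3-/- G-MDSCs, without overlap, at 0.56 ± 0.18 (adjusted p = 0.0439, edgeR's quasi-likelihood test), under the fold minimum. Slc2a3 at 0.44 ± 0.16, Hk2 at 0.41 ± 0.15, Pfkfb3 at 0.56 ± 0.22, Pkm at 0.56 ± 0.20 and Pgd at 0.49 ± 0.21 had adjusted p of 0.0662 to 0.119 by the same test. The 95% intervals of their log2 fold changes excluded 0, for example 0.13 to 0.75 for Slc2a3. These intervals use a normal approximation, which is narrower than the F test allows with few libraries. They are not adjusted for the number of genes, and none of these members was called. Ldha at −0.05 ± 0.19 and Tkt at −0.35 ± 0.27 lay below 0.

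The 4 calls in G-MDSCs depended on single libraries and on the scaling. Without WT G-MDSC replicate 2 none of the 4 was called, with log2 fold changes of 0.56 for Aldoa, 0.56 for Taldo1, −0.53 for Hif1a and −0.62 for Vegfa. That library had the highest sums of its group for granulocyte precursor genes (13900 CPM, others 6390 to 10700), proliferation genes (473 CPM, others 158 to 376) and erythroid genes (388 CPM, others 24.5 to 205). Its 20 top genes took 43.2% of counts, those of the others 33.2% to 36.3%. The part of its cell mix in the calls was not tested. Taldo1 was also lost without WT replicate 4 or Nlrp3-/- replicate 2 or 4, Hif1a without Nlrp3-/- replicate 3, and Vegfa without WT replicate 3 or 4 or Nlrp3-/- replicate 2, 3 or 4. Without WT replicate 1, 7 of 31 members were called, as Pfkfb4, Pgd and Pkm joined the 4, against 1526 of all 9553 genes. Corrected for the GC content and length of transcripts, only Vegfa stayed called (−0.67), and the other log2 fold changes were 0.21 for Aldoa, 0.26 for Taldo1 and −0.25 for Hif1a. That correction called 957 of all 9273 genes. With library size only, 5 of 30 members were called, all higher (Aldoa, Pfkfb3, Pfkfb4, Pkm and Taldo1). Over all genes that scaling called 1647 of 9273, 793 higher and 854 lower. In a model of all 16 libraries 6 of 33 members were called, all higher, against 1907 of 10696 genes, 828 higher and 1079 lower. In that model Hif1a and Vegfa were −0.57 each with adjusted p of 0.0524 and 0.120 (edgeR's quasi-likelihood test).

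In M-MDSCs none of the 33 members tested was called between the genotypes by edgeR's quasi-likelihood test, against 10.6% of all genes, 3.51% higher and 7.10% lower. At an unadjusted p under 0.05 there were 8, Slc2a3, Pfkfb3, Pkm, Pdk1, Pgd, Taldo1 and Vhl above 0 and Hif1a below. The share of all genes under that cut was not computed, so this count has no background to be read against. DESeq2 called 1 member, Pdk1, and 1424 of all 9986 genes. The groups did not overlap for 3 members, where 19.3% of all genes did not. The median log2 fold change was 0.20 over the members and 0.07 over all tested genes.

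The 3 members without overlap in M-MDSCs were Pdk1, Pgd and Taldo1. Pdk1 had 5.39, 9.42, 10.2 and 7.88 CPM in WT and 14.8, 14.8, 17.3 and 11.4 CPM in Nlrp3-/- M-MDSCs, 0.84 ± 0.26 on the log2 scale with an adjusted p of 0.0537 by edgeR's quasi-likelihood test. Taldo1 had 637, 541, 561 and 610 CPM in WT and 733, 667, 1030 and 888 CPM in Nlrp3-/- M-MDSCs, at 0.52 ± 0.16 (adjusted p = 0.0600). Pgd had 367, 261, 269 and 310 CPM in WT and 371, 374, 573 and 381 CPM in Nlrp3-/- M-MDSCs, at 0.52 ± 0.18 (adjusted p = 0.0854). The closest pair of Pgd values, 367 and 371 CPM, shows how thin its gap was. With library size only all 3 of these were called and no other member of the 33 tested, against 1253 of all 9986 genes. Corrected for GC content and transcript length, Pdk1 and Pfkfb3 were called, against 771 of 9986 genes. Without Nlrp3-/- replicate 1 Pgk1 was called, against 1783 of 10157 genes. Pgk1 had 7.45 CPM in that library and 1.02 to 1.67 CPM in the others.

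Hif1a and Vegfa were below 0 in M-MDSCs as well, without passing the test. Hif1a had 103, 57.4, 51.4 and 89.8 CPM in WT and 56.0, 50.2, 40.7 and 53.6 CPM in Nlrp3-/- M-MDSCs, groups that overlapped, at −0.55 ± 0.23 (adjusted p = 0.133, edgeR's quasi-likelihood test). Vegfa had 13.4, 37.4, 24.1 and 18.5 CPM in WT and 20, 15.9, 13.2 and 13.2 CPM in Nlrp3-/- M-MDSCs, at −0.56 ± 0.31. Vhl, which marks hydroxylated HIF-1α for degradation, was 0.43 ± 0.18 in M-MDSCs and 0.39 ± 0.24 in G-MDSCs.

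**Figure D5:**
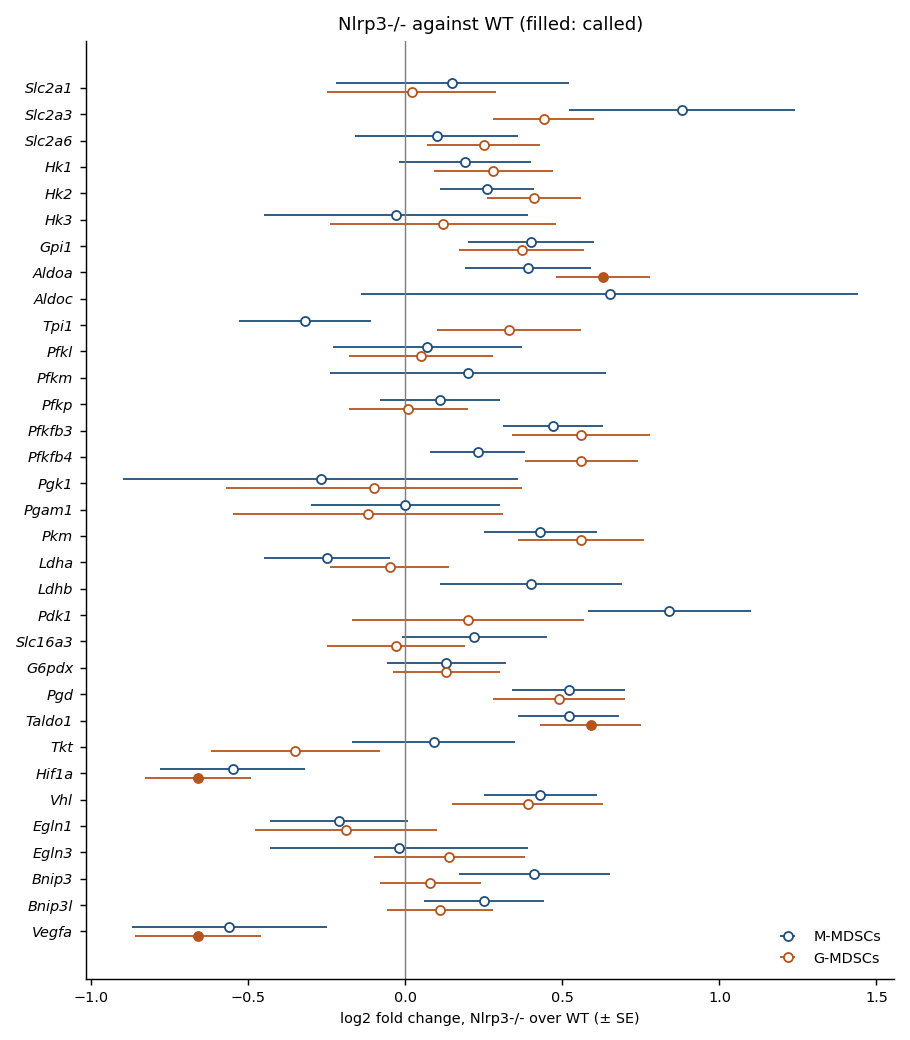
Log2 fold change of Nlrp3-/- over WT (horizontal axis, ± SE) for each tested member (vertical axis, ordered by role), in M-MDSCs (blue) and G-MDSCs (brown), with filled points for called members. The filled points are Aldoa at 0.63, Taldo1 at 0.59, Hif1a at −0.66 and Vegfa at −0.66, all in G-MDSCs, and the remaining points are open.

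The effect of Nlrp3 loss was not shown to differ between the subsets for any member. In a model of all 16 libraries 0 of 33 members passed an adjusted p of 0.05 for the difference by edgeR's quasi-likelihood test, as did 0.0280% of all genes. At an unadjusted p under 0.05 there was 1, Tpi1, at 0.78 ± 0.30 with an adjusted p of 0.992. The share of all genes under that unadjusted cut was not computed. DESeq2 called 0 members and 8 of all 10696 genes. Tpi1 was −0.32 ± 0.21 in M-MDSCs and 0.33 ± 0.23 in G-MDSCs. For Aldoa the difference between the subsets was 0.35 ± 0.26 and for Pfkfb4 0.43 ± 0.24. This test was weak, since in simulated data of the same size it recovered 7% of genes whose effects differed 2-fold and 34.0% of those that differed 3-fold.

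Averaged over the 33 members tested in the model of all libraries, log2 CPM of M-MDSCs was 5.16 ± 0.10 (WT, SD, n = 4) and 5.30 ± 0.11 (Nlrp3-/-), and that of G-MDSCs 6.06 ± 0.06 and 6.32 ± 0.07. All G-MDSC libraries lay above all M-MDSC libraries, and the Nlrp3-/- G-MDSC libraries (6.26 to 6.42) lay above those of WT G-MDSCs (6.01 to 6.14), while the M-MDSC genotypes overlapped. With library size only the subset difference shrank from 0.90 to 0.19 in WT and from 1.02 to 0.22 in Nlrp3-/- mice. All 35 members together took 0.364% to 0.475% of all counts in M-MDSC libraries of WT mice and 0.489% to 0.673% in those of Nlrp3-/- mice. In G-MDSC libraries the range was 0.574% to 0.737% for WT and 0.869% to 0.956% for Nlrp3-/- mice. In each subset the Nlrp3-/- libraries gave more of their counts to these genes. The 20 genes with the most counts moved the other way. Among M-MDSC libraries they took 21.2% to 30.0% (WT) and 15.2% to 21.1% (Nlrp3-/-), among G-MDSC libraries 33.2% to 43.2% and 27.9% to 29.8%, and their part in the members' shares was not tested.

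A list of 98 other genes of carbohydrate metabolism and the hypoxia response, 96 of which are in the files, was read beside the members. Its share of called genes was 9.84% between the genotypes in G-MDSCs and 7.81% in M-MDSCs, below the 16.4% and 10.6% of all genes, so the genes named are examples and not a pattern of the list. In G-MDSCs 61 were tested, 2 rose and 4 fell. Lower in Nlrp3-/- mice were Pgm1 (phosphoglucomutase, −1.40 ± 0.29), Slc16a1 (the lactate transporter MCT1, −2.43 ± 0.54), Kdm3a (a HIF-responsive histone demethylase, −1.33 ± 0.33) and Mxi1 (an antagonist of Myc, −0.60 ± 0.16). Higher were the prolyl hydroxylase gene Egln2 (0.76 ± 0.19) and Tceb2 (elongin B, a partner of Vhl, 0.64 ± 0.21). In M-MDSCs 64 were tested, 2 rose (Higd1a, 0.82 ± 0.20, and Eno3, 0.64 ± 0.18) and 3 fell (Slc16a1, −1.43 ± 0.36, the kinase Adpgk, −1.58 ± 0.43, and Pgm1, −0.94 ± 0.26). Between the subsets 32 of 63 were called in WT mice, 12 higher and 20 lower in G-MDSCs, and 35 of 66 in Nlrp3-/- mice, 15 higher and 20 lower. These shares of 50.8% and 53.0% stand beside 53.3% and 51.0% of all genes. Among them glycogen phosphorylase Pygl (2.54 ± 0.18 in WT) and the glycogen-targeting subunit Ppp1r3b (5.01 ± 0.37) rose, and Pdhb of pyruvate dehydrogenase fell (−0.89 ± 0.16). Genes of the pentose phosphate pathway and the hypoxia response fell too, with Pgls (phosphogluconolactonase) at −1.38 ± 0.30, Prps1 (which makes the activated ribose for nucleotides) at −0.67 ± 0.24, Higd1a at −1.09 ± 0.23 and P4ha1 (a collagen prolyl hydroxylase subunit) at −1.12 ± 0.29 in WT mice.

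Markers of other cells moved with both comparisons. A list of 8 red pulp macrophage genes summed to 75.7 to 93.8 CPM (WT) and 193 to 325 CPM (Nlrp3-/-) among M-MDSC libraries, and to 400 to 739 CPM and 940 to 1180 CPM among G-MDSC libraries, and 7 of its 8 genes were called higher in Nlrp3-/- mice in each subset. A list of 8 proliferation genes summed to 194 to 589 CPM (WT) and 91.7 to 176 CPM (Nlrp3-/-) among M-MDSC libraries, and to 158 to 473 CPM and 86.7 to 217 CPM among G-MDSC libraries, with 2 of 8 genes called lower in each subset. WT M-MDSC replicate 2 stood apart with 6650 CPM of neutrophil markers, and without it 17 members were called between the subsets in WT mice. The other WT M-MDSC libraries had 1190 to 1520 CPM of these markers, and the Nlrp3-/- M-MDSC libraries 1790 to 2220 CPM. Of 6 neutrophil genes tested in M-MDSCs, 2 were called higher in Nlrp3-/- mice and 0 lower. In G-MDSCs 7 were tested, with 0 called higher and 1 lower. A list of 8 granulocyte precursor genes summed to 6390 to 13900 CPM (WT) and 6280 to 11500 CPM (Nlrp3-/-) among G-MDSC libraries, highest in WT replicate 2. The 7 monocyte markers summed to 5630 to 9600 CPM in M-MDSCs. Among G-MDSC libraries they summed to 633 to 943 CPM (WT) and 1020 to 1220 CPM (Nlrp3-/-), without overlap, with 1 gene called higher, and 6 dendritic cell markers to 155 to 206 CPM and 213 to 271 CPM, also without overlap, of which 1 was tested and none called. An erythroid list summed to 15 to 159 CPM in M-MDSCs and 23.7 to 388 CPM in G-MDSCs, with its globin genes at 0 in every group, and whether reads shared between globin genes were lost was not tested. A melanoma list summed to 21.8 to 44.1 CPM with Mlana, Tyr and Tyrp1 at 0 in every group. The sort took cells high in CD11b and positive for Ly6C or Ly6G, and whether red pulp macrophages passed it was not tested. The part of neutrophils, macrophages, monocytes, dendritic cells, granulocyte precursors and dividing cells in the members' differences was not tested. In sorted bulk samples a change in the mix of cells and a change per cell cannot be told apart.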

How the data were processed

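M-MDSCs and G-MDSCs from 4 WT and 4 Nlrp3-/- mice were profiled by QuantSeq 3′ sequencing. The authors mapped single reads to mm10 with HISAT2 2.1.0 and counted them by strand with HTSeq. The deposited values are raw counts per gene symbol, used here as they are.

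Statistics were computed in R 4.3.3. The package edgeR 4.0.16 was run on the counts (filterByExpr, TMM, quasi-likelihood F test with Benjamini-Hochberg adjustment), within each pair of groups and, for the difference of genotype effects, over 16 libraries. A call needs an adjusted p under 0.05 and, except for that difference, a fold change above 1.5. The standard error is the log2 fold change divided by the square root of F, and the 95% intervals apply a normal approximation to it. Log2 CPM used a prior count of 2. Alternatives were DESeq2 1.42.0, other scalings and filters, a model of all libraries, no fold minimum, a correction for GC content and length (splines of 4 degrees of freedom each), a replicate block, and leaving out each library. Library totals limit precision. A floor of 3 counts covers counting error only, while standard errors and 95% intervals of fold changes hold the spread between libraries. No library repeated another, as the 24 pairs of the same group differed at a chi-square of 6.76 to 50.6 for each degree of freedom.

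Gene locations are from GENCODE (mm10), where 23376 symbols matched directly and 678 by an older symbol, and promoters from RefSeq. The members and lists were chosen with earlier results of these data known. Named are all members, the Nlrp3 check and, per genotype comparison, up to 6 called genes of the further list by smallest p. The subset examples of that list were chosen after their values were seen, as were the locations given. Simulated data had 100 genes changed 2-fold and 100 changed 3-fold, and the rest unchanged. The test recovered 34.0% of 2-fold and 75.0% of 3-fold changes between M-MDSC genotypes and 43.0% and 67.0% between G-MDSC genotypes. False calls made up 2.68% and 7.56% of the calls. Fewer genes changed there than were called in the data, which makes an adjusted p harder to pass, so the rates are not those of the data. Same-numbered M-MDSC and G-MDSC libraries come from the same mouse per the sample descriptions, and their deviations from the group means correlated at 0.0971 to 0.397 in WT and 0.00821 to 0.382 in Nlrp3-/- mice. Figures were drawn with matplotlib 3.10.9.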

Additional observations from a re-analysis of the deposited data

Results flagged for a closer look

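Single libraries far from the other 3 of their group were found in 10 of 132 groups of 4 (33 members in 4 groups), where chance flags about 1 in 20, or 6.60. In Nlrp3-/- M-MDSCs, replicate 3 was high for Aldoa (626 CPM, others 353 to 391) and for Pgd (573 CPM, others 371 to 381). Replicate 1 of that group was high for Slc2a6 (32.2 CPM, others 27.4 to 28.1) and Pgk1 (7.45 CPM, others 1.02 to 1.67), and replicate 2 was low for Vhl (33.1 CPM, others 42.0 to 43.5). In Nlrp3-/- G-MDSCs, replicate 1 was low for Slc2a6 (134 CPM, others 153 to 154) and high for Egln1 (26.1 CPM, others 14.3 to 15.1). In WT G-MDSCs, replicate 3 was high for G6pdx (137 CPM, others 92.8 to 99.2) and replicate 2 low for Bnip3 (55.8 CPM, others 75.9 to 78.1). In WT M-MDSCs, replicate 3 was high for Bnip3 (17.1 CPM, others 9.59 to 10.6).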

How the results depend on the processing

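The members called between genotypes in M-MDSCs numbered 0, but 1 with DESeq2, 3 with library size only, 1 with at least 10 counts in every library, 2 corrected for GC content and transcript length, and 0 to 1 without 1 library. Over all genes the same settings called 1424, 1253, 1056 and 771, and 450 to 1783 without 1 library. In G-MDSCs the 4 calls became 0 with the replicate block, 1 after the GC and length correction and 0 with both, and ranged from 0 to 7 without 1 library. Over all genes those settings called 985, 957 and 439, and 1104 to 1544 without 1 library. WT and Nlrp3-/- mice of the same number are different animals, and their libraries did not deviate together (correlations of −0.452 to 0.0177 in M-MDSCs and −0.263 to −0.0438 in G-MDSCs), so the replicate block pairs nothing the design pairs. With the mouse as a replicate block the subset counts stayed at 18 and 17, and no call changed. Without 1 library they were 16 to 19 in WT and 17 to 18 in Nlrp3-/- mice, and the count for the difference of effects stayed at 0 in all alternatives run. In WT mice the difference between subsets reversed with library size only for Aldoa (−0.09), Ldha (−0.05) and Pfkfb3 (−0.04), by the lower scaling of G-MDSC libraries. Of 668 single-gene alternatives 615 kept direction and call, 50 lost the call and 3 reversed. The 4 genotype calls in G-MDSCs were less stable than this pool. Of 19 alternatives each, Aldoa lost its call in 4, Hif1a in 7, Taldo1 in 8 and Vegfa in 10. The mean log2 CPM difference over the members moved with library size only to 0.27 between genotypes in M-MDSCs, and to 0.19 and 0.22 between subsets in WT and Nlrp3-/- mice. With the median over the members it moved to 0.17 between genotypes in G-MDSCs and to 1.02 and 1.15 between subsets. Between genotypes in M-MDSCs the median gave 0.04 against 0.14, a shift under the pooled SD of the groups. Over all genes, the lower share of calls went from 66.9% to 45.4% between M-MDSC genotypes, from 71.4% to 51.9% between G-MDSC genotypes, and from 50.8% to 81.3% and 53.6% to 81.5% between subsets with library size only, and to 47.2% between M-MDSC genotypes after the GC and length correction. Depth limits genes with few counts, such as Ldhb in G-MDSCs with 0 to 11.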
